A study of Mus musculus with 12 samples.

Results

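Genes of hepatic glucose output were followed through 4 treatments of cultured primary mouse hepatocytes. The 9 genes were chosen by symbol: Pck1, Pck2, G6pc, Slc37a4, Fbp1, Pcx, Mdh1 and Aqp9, which encode enzymes and carriers of glucose production, and Ppargc1a, which encodes the transcriptional coactivator PGC-1alpha. All 9 were found among the 36144 gene symbols of the deposited TPM table, and all 9 were among the 11544 genes tested, which reached 1 TPM in 3 or more of the 12 libraries. TPM is transcript abundance per unit of transcript length, scaled to a fixed total per library, so levels can be set side by side between genes. Hepatocytes of a wild-type C57/Bl6J mouse were used. They were plated in medium with serum and then kept for 16 h overnight in serum-free medium, in every group. The FDMn group had 6 µM manganese chloride during those 16 h and then received 10 µM forskolin and 1 µM dexamethasone for 5 h before lysis. The FDI group had 100 nM insulin for 1 h before the same forskolin and dexamethasone. The FD group received forskolin and dexamethasone alone, and the Mock group none of these agents. Each group held 3 libraries. The labels name 1 animal and do not say whether the 3 libraries of a group came from separate preparations, so p-values measure only the spread between these libraries, which may be technical. No group had manganese or insulin without forskolin and dexamethasone, and between FDMn and FDI the agent and the length of exposure cannot be told apart.

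Gluconeogenesis builds glucose from lactate, amino acids and glycerol, and in fasting it is switched on in the liver by glucagon, through cAMP, and by glucocorticoids. Forskolin raises cAMP by activating adenylate cyclase, and dexamethasone is a synthetic glucocorticoid. Insulin opposes the programme, in part by keeping the transcription factor FOXO1 out of the nucleus. The pathway starts in mitochondria, where pyruvate carboxylase makes oxaloacetate, passes through phosphoenolpyruvate carboxykinase (PEPCK) and fructose-1,6-bisphosphatase, and ends in the endoplasmic reticulum, where glucose-6-phosphate is imported and cleaved to free glucose.

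The libraries had between 10900 and 11161 genes at a TPM of at least 1, and replicates correlated across genes with r between 0.981 and 0.991; genes are not independent replicates. TPM keeps no record of read numbers, so the depth per library is unknown. The summed TPM of 7 measured hepatocyte markers, albumin among them, was 31740 to 32477 in FDMn, 26886 to 27532 in FDI, 27242 to 36986 in FD and 28976 to 29892 in Mock. Albumin gave most of this sum, at 32589, 30581 and 22624 TPM in the FD libraries. Hnf4a, also among the 7, was itself 3.94-fold higher in FD than in Mock. The summed TPM of 6 cholangiocyte markers was 1412 to 1606 in FDMn, 762 to 809 in FDI, 732 to 803 in FD and 1082 to 1126 in Mock. Of these 6, 3 were tested, and Spp1 gave most of the sum (1333 to 1524 TPM in FDMn, 611 to 650 TPM in FDI, 657 to 719 TPM in FD and 858 to 930 TPM in Mock). Sox9 was at 24 to 26.2 TPM in FDMn, 36.6 to 47.7 TPM in FDI, 15.4 to 18.7 TPM in FD and 32.7 to 38.7 TPM in Mock. Cldn4 was at 47.6 to 54.3 TPM in FDMn, 91.8 to 112 TPM in FDI, 55.6 to 67.6 TPM in FD and 162 to 196 TPM in Mock. The defining bile duct markers Krt19, Krt7 and Epcam stayed between 0.0127 and 1.24 TPM in all libraries. The summed TPM of 6 endothelial markers was 22.9 to 26.2 in FDMn, 16.7 to 22.1 in FDI, 19.1 to 27.7 in FD and 15.2 to 16.1 in Mock. The sums for 8 macrophage, 6 stellate cell and 4 lymphocyte markers reached at most 7.17, 4.83 and 0.345 TPM in any library. The part of these shifts in the results below was not tested. In bulk RNA a change in the number of cells that express a gene and a change in RNA per cell cannot be told apart.

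Forskolin and dexamethasone changed the order of the 9 genes by level. Pck1 and G6pc had the lowest levels of the 9 in Mock cells, where they overlapped each other. In FD cells Pck1 had the highest level and G6pc the fourth highest by mean, overlapping Aqp9. All 9 genes passed the test between FD and Mock, 7 higher and 2 lower. Of all genes tested, 41.1% passed, 11.2% higher and 29.9% lower, so that 27.3% of the calls were higher, against 51.1% with median-of-ratios scaling. The replicates of FD and Mock did not overlap for any of the 9, against 48.0% of all genes tested. Pck1, G6pc and Ppargc1a were below 1 TPM in every Mock library and thus entered the test through the other groups, where they are higher. Over all genes tested the median log2 change between FD and Mock was −0.15, and it was 0.00 after median-of-ratios scaling; the 9 genes kept their directions under both scalings and under quantile normalization.

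**Figure D1:**
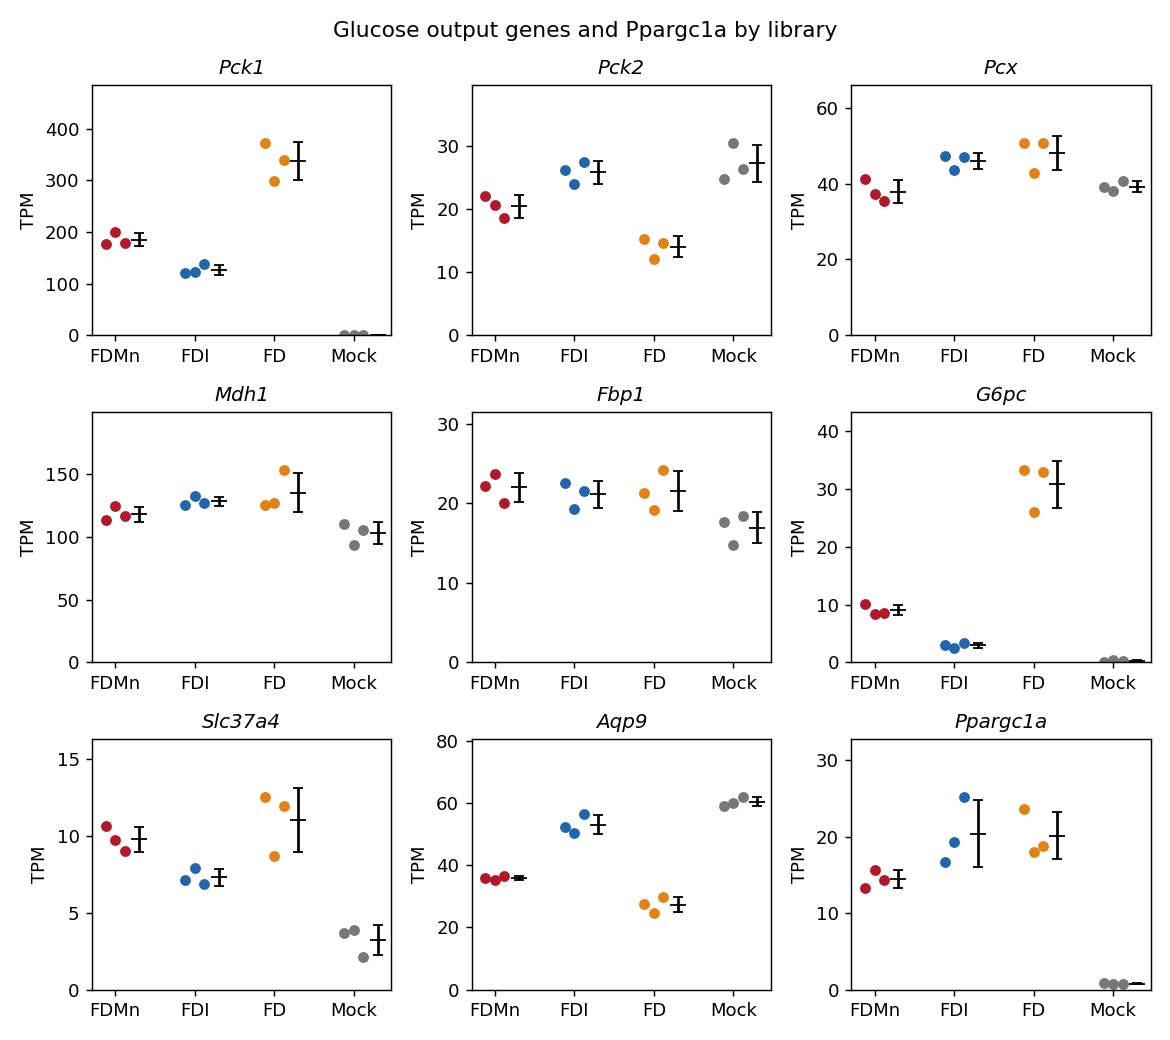
TPM of the 9 genes (y axes, from 0) in each of the 12 libraries (points), by group (x axes), with the group mean and SD (n = 3) as a bar at the right of each group. Pck1 and G6pc sit highest in FD and near 0 in Mock, Pck2 and Aqp9 sit lowest in FD, and Ppargc1a is at 16.7 to 25.2 TPM in FDI and 18.0 to 23.7 TPM in FD.

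Pck1 encodes cytosolic PEPCK, which turns oxaloacetate into phosphoenolpyruvate and is the classic hormone-controlled step of the pathway (GRCm38 chromosome 2, 173153048 to 173159273, plus strand). It was at 177, 200 and 179 TPM in the FDMn libraries, 120, 123 and 138 TPM in FDI, 373, 299 and 339 TPM in FD, and 0.243, 0.245 and 0.540 TPM in Mock. The 4 groups did not overlap, and their order was FD, FDMn, FDI and Mock from high to low. The log2 change, here and below a change of log2(TPM + 1), was 7.98 ± 0.10 between FD and Mock (SE, limma adjusted p = 1.54e-13). Pck1 fell by 0.86 ± 0.10 on the log2 scale with manganese (FDMn against FD, adjusted p = 0.000255), to 55.0% of its FD mean. It fell by 1.40 ± 0.10 with insulin (FDI against FD, adjusted p = 4.51e-06), to 37.7% of its FD mean. The direct comparison of FDMn with FDI gave a log2 change of 0.54 ± 0.10 (adjusted p = 0.00384), so Pck1 was higher with manganese than with insulin. This last call ended with a pseudocount of 0.1 in place of 1 (adjusted p = 0.074) and kept its direction in every alternative run.

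Pck2 encodes mitochondrial PEPCK, which carries out the same reaction inside mitochondria (chromosome 14, 55540266 to 55551242, plus strand). Pck2 was at 22.2, 20.7 and 18.6 TPM in FDMn, 26.2, 24.0 and 27.6 TPM in FDI, 15.3, 12.2 and 14.7 TPM in FD, and 24.8, 30.6 and 26.5 TPM in Mock. It thus ran opposite to Pck1, with FD lowest and clear of the other 3 groups. Between FD and Mock Pck2 fell by 0.91 ± 0.11 on the log2 scale (adjusted p = 3.07e-05). It was higher with manganese (FDMn against FD, log2 change 0.51 ± 0.11, adjusted p = 0.00728) and with insulin (FDI against FD, 0.84 ± 0.11, adjusted p = 0.000296). FDI and Mock overlapped, and the difference between them was −0.07 with a 95% interval of −0.30 to 0.17. FDMn and FDI did not overlap, at means of 20.5 and 25.9 TPM, but the difference missed the threshold (adjusted p = 0.054). FDMn stayed lower than Mock (−0.39 ± 0.11, adjusted p = 0.0107), a call that ended under median-of-ratios scaling and under quantile normalization.

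Because both PEPCK genes are measured per length in the same libraries, the share of Pck1 in their summed TPM does not depend on how libraries are scaled. This quantity was chosen after the values were seen and is given without a test. Pck1 made up 88.9, 90.6 and 90.5% of the sum in FDMn libraries, 82.1, 83.7 and 83.3% in FDI, 96.1, 96.1 and 95.8% in FD, and 0.973, 0.794 and 2.00% in Mock. The 4 groups did not overlap.

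G6pc encodes the catalytic subunit of glucose-6-phosphatase, which releases free glucose as the final step (chromosome 11, 101367561 to 101377903, plus strand). Its level was 10.1, 8.46 and 8.58 TPM in FDMn, 3.08, 2.49 and 3.31 TPM in FDI, 33.3, 26.1 and 33.0 TPM in FD, and 0.0900, 0.445 and 0.235 TPM in Mock. The groups did not overlap and stood in the same order as for Pck1. The log2 change was 4.66 ± 0.14 between FD and Mock (adjusted p = 1.81e-10). G6pc fell by 1.65 ± 0.14 with manganese (FDMn against FD, adjusted p = 2.08e-05) and by 3.00 ± 0.14 with insulin (FDI against FD, adjusted p = 3.67e-07). FDMn cells kept 29.4% of the FD mean and FDI cells 9.61%. FDMn was 3.06-fold higher than FDI (log2 change 1.35 ± 0.14, adjusted p = 7.22e-05), and this call passed in every alternative run. G6pc in FDI cells was still above Mock (log2 change 1.66 ± 0.14, adjusted p = 2.36e-06). With Mock below 1 TPM the size of this change depends on the pseudocount, and it was 0.6 to 3.22 over the alternatives.

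Slc37a4 encodes the carrier that brings glucose-6-phosphate into the endoplasmic reticulum to this enzyme (chromosome 9, 44396852 to 44402968, plus strand). It was at 10.6, 9.71 and 8.97 TPM in FDMn, 7.10, 7.91 and 6.87 TPM in FDI, 12.5, 8.67 and 11.9 TPM in FD, and 3.67, 3.89 and 2.10 TPM in Mock. FD replicate 2 lay below all FDMn libraries, and Mock lay below all other groups. Slc37a4 was 3.43-fold higher in FD than in Mock (log2 change 1.52 ± 0.17, adjusted p = 2.45e-05). With manganese the log2 change was −0.15, with a 95% interval of −0.53 to 0.23. With insulin it was −0.52 ± 0.17 and missed the threshold (adjusted p = 0.0656). Without FD replicate 2 that change was −0.67 and passed (adjusted p = 0.0316), and it also passed with median-of-ratios scaling and with a pseudocount of 5. The ratio of G6pc to Slc37a4 TPM, chosen after the values were seen, was 0.928 ± 0.0488 in FDMn, 0.410 ± 0.0857 in FDI, 2.81 ± 0.178 in FD and 0.0834 ± 0.0510 in Mock (SD, n = 3 each).

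Ppargc1a encodes PGC-1alpha, a coactivator that cAMP induces in fasted liver and that works with HNF4A, FOXO1 and nuclear receptors on gluconeogenic and mitochondrial genes (chromosome 5, 51454250 to 51567726, minus strand). Ppargc1a was at 13.3, 15.7 and 14.4 TPM in FDMn, 16.7, 19.3 and 25.2 TPM in FDI, 23.7, 18.0 and 18.8 TPM in FD, and 0.834, 0.793 and 0.747 TPM in Mock. FDI and FD overlapped, and FDMn lay below both. It was 25.5-fold higher in FD than in Mock (log2 change 3.55 ± 0.14, adjusted p = 1.96e-09). With insulin the change was 0.00, with a 95% interval of −0.31 to 0.32, in the same libraries in which Pck1 and G6pc fell. With manganese it was −0.44 ± 0.14 and missed the threshold (FDMn against FD, adjusted p = 0.0566), although the replicates did not overlap. That change passed with median-of-ratios scaling, with quantile normalization and with a filter of 5 TPM, where the smallest adjusted p was 0.0461. FDMn against FDI gave −0.45 ± 0.14 (adjusted p = 0.0492). This call ended in 12 of 15 alternatives, at adjusted p up to 0.178, among them those without FDMn replicate 1, 2 or 3 and without FDI replicate 2 or 3.

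The sequence before the transcription start is shown for the 3 genes that rose most and for Pck2, which went the other way. The 4 windows are the 250 bases upstream of the RefSeq start on GRCm38.p6, written in the direction of the gene. Capitals mark matches, on either strand, to any of 6 motifs: the cAMP response half-site TGACG, the full cAMP response element TGACGTCA, its variant TTACGTNA, the forkhead motif TGTTTAC, the insulin response core TGTTTTG, and the glucocorticoid half-site TGTTCT. The motifs were chosen with the sequences in view.
Pck1 (chr2:173152823-173153072, plus strand): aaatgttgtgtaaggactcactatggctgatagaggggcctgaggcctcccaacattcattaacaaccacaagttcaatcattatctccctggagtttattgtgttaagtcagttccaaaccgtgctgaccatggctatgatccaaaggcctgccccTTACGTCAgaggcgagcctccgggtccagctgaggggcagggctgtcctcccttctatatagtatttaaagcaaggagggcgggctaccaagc
G6pc (chr11:101367466-101367715, plus strand): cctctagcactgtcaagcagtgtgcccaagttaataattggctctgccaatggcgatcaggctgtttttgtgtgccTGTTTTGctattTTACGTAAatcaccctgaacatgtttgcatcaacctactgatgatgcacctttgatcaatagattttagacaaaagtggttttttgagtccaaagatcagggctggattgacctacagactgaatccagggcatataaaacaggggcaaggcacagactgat
Ppargc1a (chr5:51567726-51567975, minus strand): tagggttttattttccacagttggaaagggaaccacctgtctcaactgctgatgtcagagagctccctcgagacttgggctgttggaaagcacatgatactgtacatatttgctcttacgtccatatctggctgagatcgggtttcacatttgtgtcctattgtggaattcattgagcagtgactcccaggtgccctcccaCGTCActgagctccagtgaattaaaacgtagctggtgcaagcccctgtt
Pck2 (chr14:55540016-55540265, plus strand): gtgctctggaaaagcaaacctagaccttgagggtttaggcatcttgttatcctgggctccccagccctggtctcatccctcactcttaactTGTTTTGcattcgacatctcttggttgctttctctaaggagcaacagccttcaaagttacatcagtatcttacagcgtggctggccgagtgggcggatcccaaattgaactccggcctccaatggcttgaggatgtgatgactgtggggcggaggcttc

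The Pck1 window held 1 match to TTACGTNA, starting 93 bases before the start, and the half-site match at base 90 lies inside it. The G6pc window held 1 match to TTACGTNA, starting at base 162, and 1 insulin response core, at base 174. Of 32851 RefSeq windows of the same length, 0.788% held TTACGTNA and 5.56% held TGTTTTG. The GENCODE starts of Pck1 and G6pc lie inside the windows shown, which end at the RefSeq starts. The Ppargc1a window held 1 half-site, at base 49 on the opposite strand, and the Pck2 window 1 insulin response core, at base 159. The half-site occurred in 17.8% of windows, TGACGTCA in 1.55%, TGTTTAC in 3.17% and TGTTCT in 16.1%. No window of the 9 genes held TGACGTCA or TGTTTAC. Among the other 5 genes Slc37a4 held half-sites in 2 of its 3 windows, which overlap each other, Aqp9 held TGTTCT in 1 of 2 windows, and Fbp1, Pcx and Mdh1 held none of the 6 motifs. A match describes letters and is not a test of binding.

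Aqp9 encodes the aquaglyceroporin through which hepatocytes take up glycerol, a gluconeogenic substrate (chromosome 9, 71110659 to 71168682, minus strand). It was at 35.9, 35.1 and 36.6 TPM in FDMn, 52.3, 50.3 and 56.4 TPM in FDI, 27.6, 24.7 and 29.7 TPM in FD, and 59.1, 60.1 and 61.9 TPM in Mock. The 4 groups did not overlap, and their order was that of G6pc turned upside down. Aqp9 fell by 1.12 ± 0.07 on the log2 scale between FD and Mock (adjusted p = 1.68e-07), so this uptake gene was lower when Pck1 and G6pc were higher. It was higher with manganese (FDMn against FD, 0.38 ± 0.07, adjusted p = 0.00425) and with insulin (FDI against FD, 0.93 ± 0.07, adjusted p = 6.65e-06). FDMn was lower than FDI (−0.55 ± 0.07, adjusted p = 0.000328), in every alternative run. Against Mock, FDI was at −0.19 ± 0.07 and missed the threshold (adjusted p = 0.0631), and that difference passed without FDI replicate 3 and with a replicate block (smallest adjusted p 0.045).

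Pcx encodes pyruvate carboxylase, the mitochondrial entry step for pyruvate (chromosome 19, 4510472 to 4621752, plus strand). Pcx was at 41.2, 37.2 and 35.4 TPM in FDMn, 47.4, 43.5 and 47.1 TPM in FDI, 50.8, 42.8 and 50.6 TPM in FD, and 39.0, 38.0 and 40.7 TPM in Mock. FDI and FD overlapped, FDMn and Mock overlapped, and the first pair lay above the second. The log2 change was 0.28 ± 0.08 between FD and Mock (adjusted p = 0.0152). It was −0.33 ± 0.08 with manganese (FDMn against FD, adjusted p = 0.0173) and −0.06 with insulin, where the 95% interval ran from −0.24 to 0.12. FDMn against FDI gave −0.27 ± 0.08 (adjusted p = 0.0372), a call that ended in 9 of 15 alternatives, among them those without FDI replicate 1, 2 or 3 and without FDMn replicate 2 or 3 (adjusted p up to 0.145). The FD call ended without Mock replicate 2, FD replicate 1 or FD replicate 3 (up to 0.0577), and the manganese call without FD replicate 1, FDMn replicate 2 or FDMn replicate 3 and in a fit of only FDMn and FD (up to 0.0707).

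Fbp1 encodes fructose-1,6-bisphosphatase, the step that opposes phosphofructokinase (chromosome 13, 62864753 to 62888282, minus strand). It was at 22.2, 23.7 and 20.1 TPM in FDMn, 22.6, 19.3 and 21.5 TPM in FDI, 21.3, 19.1 and 24.2 TPM in FD, and 17.7, 14.7 and 18.4 TPM in Mock. The 3 treated groups overlapped each other and all lay above Mock. Fbp1 was 1.27-fold higher in FD than in Mock (log2 change 0.33 ± 0.11, adjusted p = 0.0296). That call ended without Mock replicate 2, FD replicate 1 or FD replicate 3, with no filter and in a fit of only FD and Mock, at adjusted p up to 0.118. The change with manganese was 0.03 (95% interval −0.21 to 0.27) and with insulin −0.02 (−0.26 to 0.22).

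Mdh1 encodes cytosolic malate dehydrogenase, which turns exported malate back into oxaloacetate (chromosome 11, 21556787 to 21572367, minus strand). Mdh1 was at 113, 124 and 116 TPM in FDMn, 125, 132 and 127 TPM in FDI, 125, 127 and 153 TPM in FD, and 110, 93.6 and 105 TPM in Mock. Every treated library lay above every Mock library, and FD replicate 3 stood above the rest. Mdh1 was 1.31-fold higher in FD than in Mock (log2 change 0.39 ± 0.08, adjusted p = 0.00266), in every alternative run. Manganese gave −0.19 ± 0.08 against FD (adjusted p = 0.15) and insulin −0.07 ± 0.08 (adjusted p = 0.619).

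The use of strand in counting is not given in the sources used here, so reads of a member and of a gene on its opposite strand cannot be told apart. Of the overlapping genes in the table, Lrfn4, opposite Pcx, reached at most 0.265 TPM and Wdpcp, opposite Mdh1, at most 2.69 TPM in any library. Gm47268, a processed pseudogene opposite Aqp9, was at 0 TPM in all libraries. Antisense annotations that overlap Pck2 and Aqp9, and provisional gene models that overlap Ppargc1a, were not found by symbol in the table. No level can be given for them. Values are given per gene, and how the values of its transcripts were combined is not given in the sources used here. GENCODE M21 lists 13 transcripts with 11 starts for Pck2, 10 with 10 starts for Aqp9, 5 with 5 starts for Ppargc1a and 1 for G6pc, and starts of 1 gene were not resolved.

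**Figure D2:**
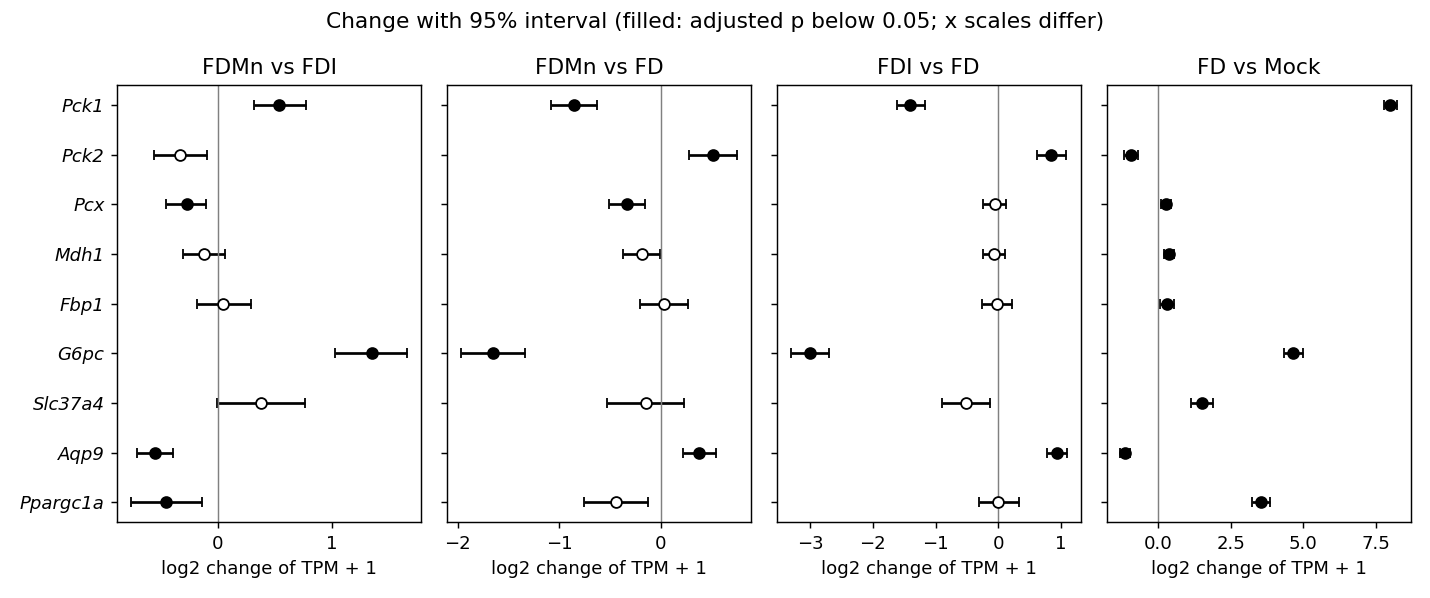
Log2 change of TPM + 1 (x axes, scales differ between panels) for the 9 genes in 4 comparisons, each the first group named minus the second, with the 95% interval of the limma fit. Filled points passed an adjusted p of 0.05. Insulin against FD shows Pck1 and G6pc to the left, Pck2 and Aqp9 to the right and Ppargc1a at 0.00.

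Manganese and insulin are set side by side here gene by gene; both comparisons use the same FD libraries and are not independent. Relative to FD, the log2 changes of Pck1, G6pc, Pck2 and Aqp9 passed with each agent, as given above, and that of Pcx passed with manganese. With manganese 5 of 9 genes passed, 3 lower and 2 higher, against 15.1% of all genes tested, 7.90% lower and 7.22% higher. The replicates of FDMn and FD did not overlap for 7 of 9, against 33.0% of all genes. With insulin 4 of 9 passed, 2 lower and 2 higher, against 14.5% of all genes tested, 4.35% lower and 10.2% higher. The replicates of FDI and FD did not overlap for 5 of 9, against 30.8% of all genes. Of all calls with insulin 70.0% were higher, against 56.7% with median-of-ratios scaling. The median log2 change of the 9 was −0.19 with manganese and −0.06 with insulin, beside 0.00 and 0.04 over all genes tested. Between FDMn and FDI 5 of 9 passed, 2 higher and 3 lower, against 17.6% of all genes tested, 5.68% higher and 11.9% lower (32.3% of the calls higher, and 42.7% with median-of-ratios scaling). The count was 3 of 9 without FDI replicate 2 or 3 or FDMn replicate 2 or 3. The replicates of FDMn and FDI did not overlap for 8 of 9, against 40.5% of all genes. The calls among these 5 that passed in every alternative run were those of G6pc and Aqp9.

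The distance covered from FD back towards Mock can be given as the share of the FD minus Mock difference in TPM that was left. For G6pc 28.8 ± 3.07% was left in FDMn and 8.85 ± 1.38% in FDI (SD, n = 3 each, taken over libraries with the FD and Mock means held fixed). For Pck1 the shares were 55.0 ± 3.80% in FDMn and 37.6 ± 2.77% in FDI. For Aqp9 they were 74.3 ± 2.28% in FDMn and 22.3 ± 9.45% in FDI. For Pck2 they were 51.4 ± 13.6% in FDMn and 10.2 ± 13.6% in FDI. Ppargc1a had 70.7 ± 6.39% left in FDMn and 101 ± 22.4% in FDI, with the higher share in FDI. Slc37a4 had 83.7 ± 10.6% left in FDMn and 52.1 ± 7% in FDI. With median-of-ratios scaling the share left in FDI was −7.69% for Pck2 and 9.39% for Aqp9. When single libraries were left out, the Pck2 share in FDI was −2.57% without Mock replicate 2, 2.96% without FDI replicate 2, 16.4% without FDI replicate 3 and 18% without Mock replicate 1. Mdh1 had 47.0 ± 17.2% left in FDMn and 77.8 ± 11% in FDI, and Pcx −14.8 ± 34% in FDMn and 76.7 ± 24.3% in FDI, both with the higher share in FDI. The Pcx share in FDMn was 21.2% with median-of-ratios scaling. Without single libraries it was between −33.5% (without FDMn replicate 1) and −0.255% (without FDMn replicate 3), and it was −23.3% without Mock replicate 2 and −5.91% without Mock replicate 3. Fbp1 had 110 ± 39.1% left in FDMn and 91.4 ± 35.6% in FDI. Without FD replicate 3 the Fbp1 shares were 154% in FDMn and 128% in FDI. The Mdh1 shares were then 65.3% in FDMn and 108% in FDI. Without FDI replicate 2 the Fbp1 shares were 110% in FDMn and 111% in FDI.

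**Figure D3:**
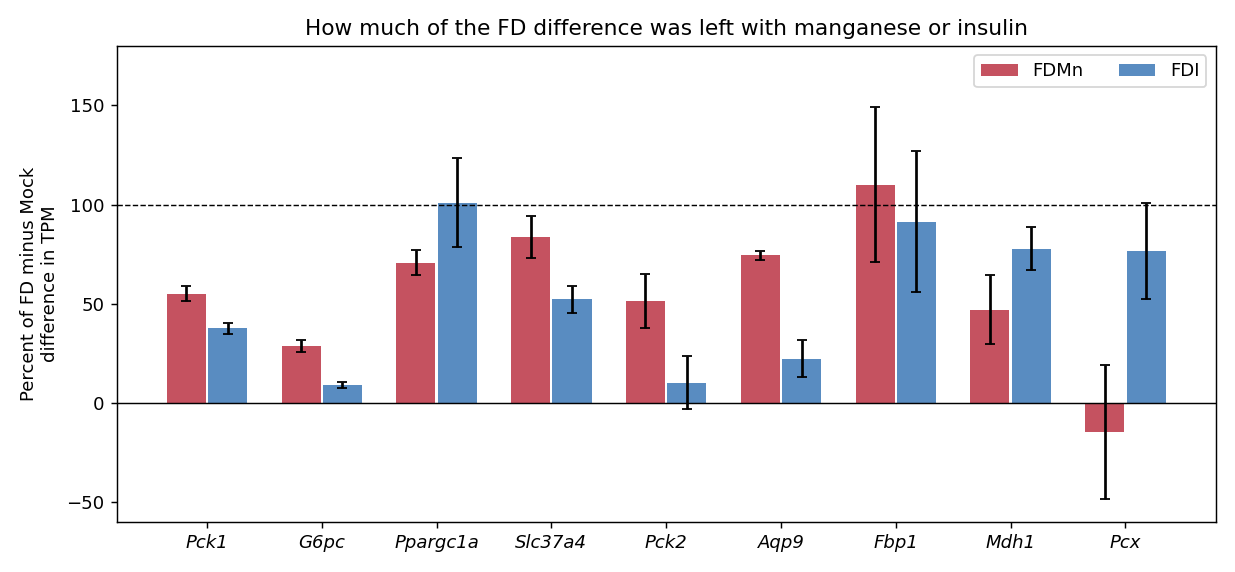
Share of the FD minus Mock difference in TPM that was left (y axis, percent) with manganese (FDMn) and with insulin (FDI) for the 9 genes, as mean and SD over 3 libraries. The dashed line at 100 is the FD level and 0 is the Mock level. The mean of FDMn is above that of FDI for 6 of the 9 genes, and below it for Ppargc1a, Mdh1 and Pcx.

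Against Mock, 7 of the 9 genes passed in FDMn, 5 higher and 2 lower, where 42.7% of all genes tested passed, 12% higher and 30.6% lower (28.2% of the calls higher, and 51.0% with median-of-ratios scaling). In FDI 7 passed, all higher, where 38.3% of all genes tested passed, 12.9% higher and 25.4% lower (33.7% of the calls higher, and 52.8% with that scaling). Replicates did not overlap for 8 of 9 genes in each comparison, against 55.2% of all genes for FDMn and 51.1% for FDI. Pck1 was still 541-fold higher in FDMn and 370-fold higher in FDI than in Mock, from Mock values below 1 TPM. Pcx was not called in FDMn against Mock (log2 change −0.05, 95% interval −0.23 to 0.13). In FDI against Mock it was at 0.22 ± 0.08 (adjusted p = 0.047), a call that ended without any single library of either group (adjusted p up to 0.123). Fbp1 passed in FDI (0.31 ± 0.11, adjusted p = 0.0428) and in FDMn (0.36 ± 0.11, adjusted p = 0.0184). Its FDI call ended without Mock replicate 1 or 2 or FDI replicate 1 or 3, and its FDMn call without Mock replicate 2 or FDMn replicate 1 or 2.

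The reversible steps between phosphoenolpyruvate and glucose-6-phosphate are shared with glycolysis. All 7 of their measured genes rose in FD against Mock, where 41.1% of all genes tested passed, with a median log2 change of 0.38 beside −0.15 over all genes tested. With manganese Tpi1, Pgk1 and Eno1, 3 of the 7, were higher than in FD and none passed as lower, beside 15.1% of all genes tested that passed. Tpi1 (triosephosphate isomerase) was at 784 ± 7.40 TPM in FDMn and 614 ± 33.5 TPM in FD (adjusted p = 0.000972). With insulin 3 of 7 rose and 1 fell, beside 14.5%. The number that rose with insulin was 0 in a fit of only FDI and FD, and 1 without FD replicate 1 or 2 or FDI replicate 1 or 3. That number was also 1 under median-of-ratios scaling, under quantile normalization and with no trend in the prior variance.

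Of 5 enzymes and regulators of the opposing glycolytic steps, 3 rose and Pklr fell in FD against Mock, where 41.1% of all genes tested passed. Pklr, liver pyruvate kinase, was at 208 ± 12.9 TPM in FDMn, 181 ± 7.78 TPM in FDI, 157 ± 3.52 TPM in FD and 222 ± 6.32 TPM in Mock. Its rise with manganese passed at 0.40 ± 0.06 (adjusted p = 0.000558). Its rise with insulin (0.20 ± 0.06, adjusted p = 0.0301) ended under median-of-ratios scaling and under quantile normalization. That call also ended in a fit of only FDI and FD, with no trend in the prior variance, and without FD replicate 1 or 2 or FDI replicate 1 or 3. Pfkfb1, whose product sets fructose-2,6-bisphosphate, was at 2.73 ± 0.338 TPM in FDMn and 2.53 ± 0.631 TPM in FDI. Its level was 5.24 ± 1.01 TPM in FD and 4.23 ± 0.281 TPM in Mock. Pfkfb1 fell with manganese by 0.73 ± 0.16 (adjusted p = 0.0085) and with insulin by 0.82 ± 0.16 (adjusted p = 0.00451). With a filter of 5 TPM it was not tested. Over the other alternatives the change was −0.91 to −0.4 with manganese and −1.03 to −0.44 with insulin.

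Among 16 tested genes that feed carbon into the pathway, 7 rose and 1 fell in FD against Mock, beside 41.1% of all genes tested that passed. Got1, cytosolic aspartate aminotransferase, was at 467 ± 38.1 TPM in FDMn, 663 ± 10.4 TPM in FDI, 720 ± 15.8 TPM in FD and 80.6 ± 4.72 TPM in Mock. It fell with manganese by 0.63 ± 0.06 (FDMn against FD, adjusted p = 6.21e-05), and with insulin its change was −0.12 ± 0.06 (adjusted p = 0.245). FDMn was lower than FDI (−0.51 ± 0.06, adjusted p = 0.000209). Slc25a13, the mitochondrial aspartate carrier of the same shuttle, also fell with manganese (−0.36 ± 0.08, adjusted p = 0.0105). Sds, serine dehydratase, was at 25.1 ± 1.21 TPM in FDMn and 22.6 ± 2.53 TPM in FDI. Its level was 25.1 ± 7.80 TPM in FD and 0.708 ± 0.0968 TPM in Mock, 35.5-fold higher in FD. Sds was below 1 TPM in every Mock library and thus entered the test through the other groups. Its log2 change between FD and Mock was 2.37 to 4.93 over the alternatives. In all, 3 of 16 fell and 1 rose with manganese (15.1% of all genes tested passed), and 2 rose with insulin (14.5% of all genes tested passed). With insulin 1 rose without FD replicate 1 or 2 or FDI replicate 1 or 3, and 4 rose without FD replicate 3. The insulin count was also 1 under quantile normalization, with no filter, with no trend in the prior variance and in a fit of only FDI and FD. Gpd1, among the 3 that fell with manganese, lost its call without any single library of FDMn or FD.

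Of the 14 listed paralogs and glucose carriers, 9 were tested, of which 1 rose and 3 fell in FD against Mock, where 41.1% of all genes tested passed (1 fell with either other scaling). Mdh2, the mitochondrial malate dehydrogenase, was at 310 ± 3.07 TPM in FDMn, 335 ± 7.08 TPM in FDI, 271 ± 28.3 TPM in FD and 205 ± 14.8 TPM in Mock. Aqp8, another aquaporin of hepatocytes, was at 48.3 ± 3.28 TPM in FDMn, 47.2 ± 2.29 TPM in FDI, 25.6 ± 5.19 TPM in FD and 60.5 ± 5.36 TPM in Mock. The Aqp8 log2 change was −1.23 ± 0.13 between FD and Mock (adjusted p = 8.85e-06), 0.91 ± 0.13 with manganese (adjusted p = 0.000527) and 0.88 ± 0.13 with insulin (adjusted p = 0.00067). G6pc3, the widely expressed glucose-6-phosphatase, was at 8.08 ± 2.28 TPM in FD and 11.8 ± 1.37 TPM in Mock (−0.53 ± 0.17, adjusted p = 0.0299). That call ended under both other scalings and without Mock replicate 1, Mock replicate 2 or FD replicate 2. It also ended with no filter and in a fit of only FD and Mock. Ppargc1b, the closest relative of Ppargc1a, was at 0.787 ± 0.172 TPM in FDMn, 0.587 ± 0.00836 TPM in FDI, 0.986 ± 0.266 TPM in FD and 1.41 ± 1.04 TPM in Mock and did not pass in any of the 6 comparisons.

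Of 15 listed regulators of gluconeogenic genes, 8 rose and 5 fell in FD against Mock, beside 41.1% of all genes tested that passed. The list was not split into activators and repressors, so these counts have no single direction for the pathway. Klf15, a glucocorticoid-induced factor, was at 38.3 ± 1.71 TPM in FDMn, 37.8 ± 2.43 TPM in FDI, 57.5 ± 3.80 TPM in FD and 3.72 ± 0.250 TPM in Mock. It fell by 0.57 ± 0.08 with manganese (adjusted p = 0.000514) and by 0.59 ± 0.08 with insulin (adjusted p = 0.000392). Foxo1 was at 19.9 ± 0.468 TPM in FDMn, 19.4 ± 1.87 TPM in FDI, 22.5 ± 1.09 TPM in FD and 5.28 ± 0.432 TPM in Mock, and passed in FD against Mock (log2 change 1.90 ± 0.09, adjusted p = 7.73e-09). Nr4a1, an orphan receptor induced by cAMP, was at 4.12 ± 0.535 TPM in FDMn, 15.4 ± 0.796 TPM in FDI, 6.15 ± 0.470 TPM in FD and 4.30 ± 0.447 TPM in Mock. It was higher with insulin (1.20 ± 0.11, adjusted p = 2.17e-05) and lower in FDMn than in FDI (−1.68 ± 0.11, adjusted p = 2.64e-06). Its fall with manganese (−0.48 ± 0.11, adjusted p = 0.0114) ended without FDMn replicate 1 (adjusted p = 0.0516). Cebpb, another cAMP-induced factor, rose with manganese (0.41 ± 0.07, adjusted p = 0.00259) and with insulin (0.48 ± 0.07, adjusted p = 0.000871). Foxa2 fell with insulin by 0.71 ± 0.09 (adjusted p = 0.000296) and was at −0.23 with manganese (adjusted p = 0.112). In all, 3 rose and 3 fell with manganese (15.1% of all genes tested passed), and 3 rose and 4 fell with insulin (14.5% of all genes tested passed); without FDMn replicate 1 only 1 fell with manganese, and in a fit of only FDI and FD 2 fell with insulin.

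Of 15 partners and targets of PGC-1alpha, 6 rose and 5 fell in FD against Mock (6 rose and 3 fell with median-of-ratios scaling), beside 41.1% of all genes tested that passed, with a median log2 change of −0.16 beside −0.15 over all genes tested. Cpt1a, the entry enzyme of fatty acid oxidation, was at 125 ± 4.27 TPM in FDMn, 145 ± 9.20 TPM in FDI, 160 ± 5.72 TPM in FD and 19.8 ± 0.614 TPM in Mock. It fell by 0.36 ± 0.06 with manganese (adjusted p = 0.00185), and with insulin its change was −0.14 ± 0.06 (adjusted p = 0.139). Pdk4, a kinase that shuts down pyruvate dehydrogenase, was at 9.90 ± 2.00 TPM in FDMn, 7.85 ± 2.00 TPM in FDI, 18.8 ± 2.21 TPM in FD and 7.04 ± 1.52 TPM in Mock. It fell with manganese by 0.87 ± 0.18 (adjusted p = 0.00812) and with insulin by 1.18 ± 0.18 (adjusted p = 0.00124). Lpin1 fell with insulin by 1.29 ± 0.13 (adjusted p = 4.88e-05), to 13.1 ± 0.867 TPM in FDI, against 33.7 ± 6.01 TPM in FD. Ppara and Alas1, 15.5-fold and 3.55-fold higher in FD than in Mock, did not pass with either agent. In all, 1 rose and 3 fell with manganese, beside 15.1% of all genes tested, and 2 rose and 3 fell with insulin, beside 14.5%. Fgf21 is counted as rising with each agent. It was at 0.884 ± 0.211 TPM in FDMn and 4.45 ± 1.08 TPM in FDI. Its level was 0.121 ± 0.209 TPM in FD and 0.896 ± 0.261 TPM in Mock. Fgf21 thus met the filter only through FDI, where it is high, and its calls are no independent support. The Fgf21 call with manganese ended without FD replicate 1 or 2 and without FDMn replicate 1 or 3. That call also ended with a pseudocount of 5 and in a fit of only FDMn and FD. With insulin 1 rather than 2 rose without any single FDI library. That count was also 1 under quantile normalization, with no filter, with a filter of 5 TPM and in a fit of only FDI and FD.

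**Figure D4:**
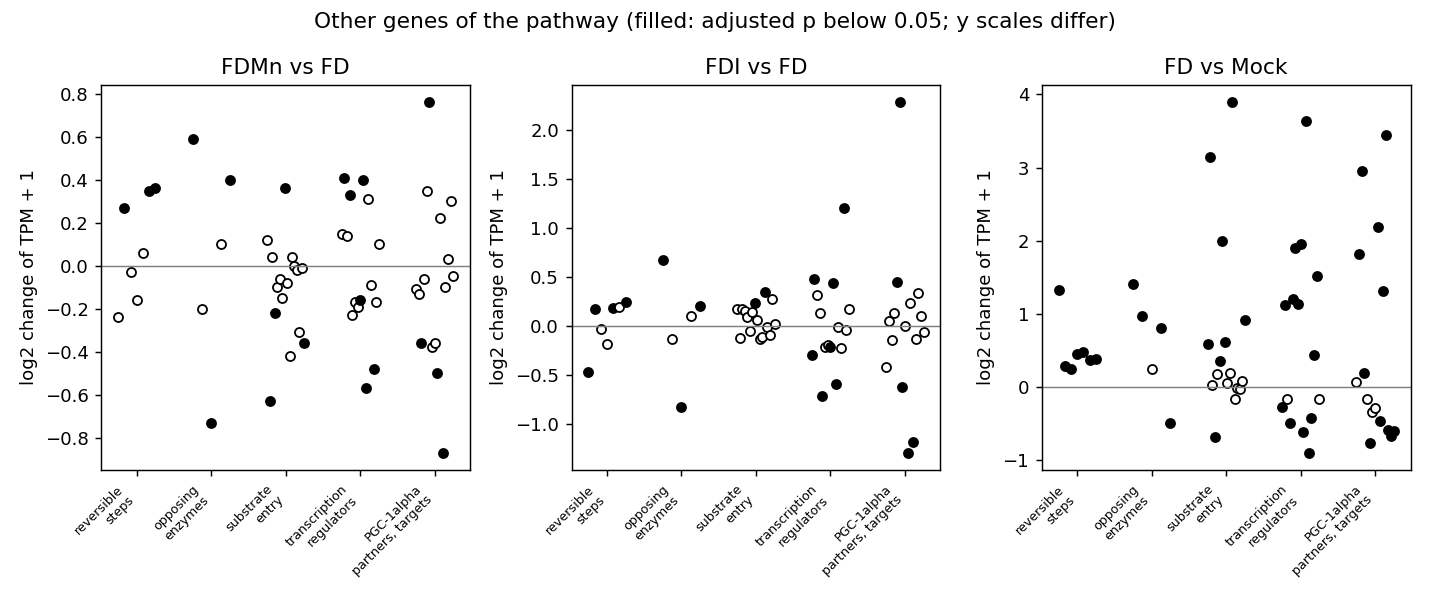
Log2 change of TPM + 1 (y axes, scales differ) for the tested genes of 5 lists around the pathway (x axes, 1 point per gene), for manganese against FD, insulin against FD, and FD against Mock. Filled points passed an adjusted p of 0.05, and all 7 reversible-step genes are above 0 in FD against Mock.

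The genes with the most similar profiles were found by Pearson correlation of log2(TPM + 1) over the 12 libraries, among all genes tested other than the 9. Each r is a description, since the libraries fall into groups and the gap to Mock carries much of it. For Pck1 these were Aass (r = 0.999) and Gfra1, Plin4, Hnf4a and Tat (r = 0.998 each). Hnf4a averaged 184 TPM in FDMn, 178 TPM in FDI, 205 TPM in FD and 52.1 TPM in Mock. For G6pc they were Sesn1 (r = 0.986), Adra2a, Arrdc3 (both 0.979), Ip6k2 (0.978) and Cps1 (0.973). Cps1 averaged 79.7 TPM in FDMn, 34.8 TPM in FDI, 207 TPM in FD and 3.76 TPM in Mock, the same order of groups as G6pc. For Ppargc1a they were Alas1 and Zbtb16 (r = 0.996 each), Cpt1a (0.995), Ass1 (0.994) and Cyp2b10 (0.993). Zbtb16 averaged 30.0 TPM in FDMn, 42.3 TPM in FDI, 40.1 TPM in FD and 6.66 TPM in Mock. Among the 9 genes, on the same scale, Ppargc1a and Pck1 had r = 0.979, Aqp9 and Pck2 r = 0.944, and Aqp9 and G6pc r = −0.957.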

How the data were processed

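Poly-A RNA was sequenced in 12 libraries. The authors deposited 1 table of gene-level TPM; kallisto 0.44.0, DESeq2 and GRCm38.p6 appear in the submitters' processing notes, which give no role for DESeq2. Which annotation release and which transcript-to-gene step were used is not given in the sources used here. Columns were matched to samples by library name, and no column was left unused. TPM is a share, so a rise in abundant transcripts lowers other values, and read depth is unknown.

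Genes that reached 1 TPM in 3 or more libraries were fitted as log2(TPM + 1) with limma 3.58.1 in R 4.3.3, with 1 term per group over all 12 libraries and a trend in the prior variance. The p-values are two-sided and were adjusted by Benjamini-Hochberg over 11544 genes in each comparison, with a threshold of 0.05. The fit was tested on simulated data. The pathway lists, markers and alternatives, like the 9 genes, were chosen with earlier results of these data known. Of each list up to 4 genes per comparison with the smallest adjusted p could be named; values beside them are from the same fit. Some genes of these lists are counted but not reported by name here. Coordinates are from GENCODE M21, matched by symbol, and sequences from RefSeq, both on GRCm38. The labels do not say that replicate numbers mark a shared preparation or day, so they are not in the model. Alternatives were other pseudocounts, filters, scalings and prior settings, a fit of only the groups compared, a replicate block and leaving out each library.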

Additional observations from a re-analysis of the deposited data

How the results depend on the processing

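Each of 54 results (9 genes in 6 comparisons) was recomputed under 15 alternatives. No change had opposite signs in the main fit and an alternative where either passed the threshold. Of the 54 results, 38 kept their side of the threshold in all 15 alternatives. In all, 743 of 810 recomputed values did. Some changes that never passed had both signs among the alternatives. Among them were Ppargc1a in FDI against FD (−0.15 to 0.13) and Pcx in FDMn against Mock (−0.11 to 0.11). The number of the 9 genes called between FDMn and FDI was 5, and it was 3 with a pseudocount of 0.1, with no filter, with median-of-ratios scaling, with quantile normalization and with no trend in the prior variance, and 3 to 4 when 1 library was left out. It was 6 with a filter of 5 TPM, where Pck2 was added, and 6 in a fit of only FDMn and FDI, where Pck2 and Slc37a4 were added and Ppargc1a was lost. The cause was not tested. Leaving out 1 library gave 7 to 9 called genes between FD and Mock, 4 to 5 between FDI and FD, 4 to 5 between FDMn and FD, 5 to 6 between FDI and Mock and 6 to 7 between FDMn and Mock. With a replicate block the counts were 9 between FD and Mock, 4 between FDI and FD, 5 between FDMn and FD, 4 between FDMn and FDI, 8 between FDI and Mock and 7 between FDMn and Mock. The block ended the Ppargc1a call between FDMn and FDI and added Aqp9 between FDI and Mock. Of 18 same-numbered pairs of libraries none had a correlation of deviations over 0.1 (−0.098 to 0.068, beside −0.076 to 0.09 for other pairs). This cannot exclude that same-numbered libraries shared a preparation or day with a small effect, and the labels do not say. Counts on the pathway lists with 1 to 3 called genes moved by over 1.5 times in many alternatives. With a median-of-ratios scaling the paralogs lower in FD than in Mock were 1 rather than 3, and the PGC-1alpha list had 3 rather than 5. Without a count of reads, the precision of values below 1 TPM cannot be given. For genes below 1 TPM in Mock the SE does not cover the choice of pseudocount. Over the alternatives the log2 change between FD and Mock was 5.99 to 9.63 for Pck1. The range was 2.76 to 6.56 for G6pc and 2.11 to 4.5 for Ppargc1a, and all 3 calls passed throughout.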
